A study of Homo sapiens with 9 samples.

Results

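The mRNAs of the proteasome subunits were followed in the nucleus and cytoplasm of a human embryonic kidney line after knockdown of the m6A methyltransferase complex. The members were chosen by name, as protein-coding genes whose symbol is PSMA, PSMB, PSMC or PSMD followed only by digits. There were 39 such genes in the annotation, and 38 had a transcript among those quantified. PSMB3 did not and was not analysed here. Of the 38, 33 reached 10 estimated counts in 3 or more samples and entered the tests, among 16181 genes tested in all.

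The proteasome is the protease that degrades ubiquitin-tagged proteins in the cytosol and nucleus. Its barrel-shaped 20S core has outer rings of alpha subunits (PSMA genes), which gate the entry, and inner rings of beta subunits (PSMB genes), some of which carry the proteolytic sites. The 19S cap unfolds substrates with a ring of ATPases (PSMC genes) and recognises and removes ubiquitin with non-ATPase subunits (PSMD genes), so most of these mRNAs are needed by every dividing cell and are translated in the cytoplasm after export.

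The cells were described as 293 T in the methods and as HEK293 in the labels, which denote lines derived from human embryonic kidney. They received either a control siRNA or a mix that targets WTAP and KIAA1429 (also named VIRMA or Virilizer), subunits of the complex that writes m6A, a methylated form of adenosine in mRNA. The siRNAs were at 10 nM, transfection was repeated at 48 hours and cells were taken at 72 hours, and the comparison asked how loss of the complex moves mRNA between nucleus and cytoplasm. The 9 libraries analysed were 3 control nuclear, 3 RNAi nuclear, 2 RNAi cytoplasmic (replicates 1 and 2) and 1 control cytoplasmic (replicate 2). Nothing in the labels says whether replicates came from separate cultures, so p-values measure the spread between these samples, and the control cytoplasmic value has no replicate.

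The libraries held 11627403 to 19036141 estimated counts, of which 83.07% to 88.31% were matched to genes. Levels below are TMM-normalised counts-per-million (CPM) where samples are compared for 1 gene, and transcripts-per-million (TPM), which correct for length, where genes are compared. Both are relative to the rest of the same library, so a lower nuclear CPM is a smaller share of nuclear RNA and not a count of molecules. In bulk fractions fewer cells with a transcript and less of it per cell cannot be told apart. WTAP stood at 37.5 CPM in the control cytoplasmic library, 23.0 to 27.6 in control nuclei and 10.8 to 15.6 in all 5 RNAi libraries. KIAA1429 stood at 13.2 to 19.8 CPM in the 4 control libraries and 4.05 to 9.18 in the RNAi ones, so neither target overlapped between treatments. MALAT1, a nuclear RNA, was at 11.2 to 20.5 TPM in the 6 nuclear and 0.461 to 1.51 in the 3 cytoplasmic libraries. The kidney developmental gene PAX2 was present in every library, at 2.78 to 6.14 TPM, and, of the leukocyte markers, PTPRC, CD3E, CD14 and HLA-DRA stayed between 0 and 1.61 TPM.

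Subunit mRNAs were abundant but their estimated levels were far from equal. The median of the 33 was 39.5 TPM over all samples, against 7.5 for all protein-coding genes tested, and 29 of the 33 lay above the latter. The highest was PSMD8, a lid subunit, at a mean of 277.9 TPM. The lowest was PSMD14, the lid deubiquitinase that strips ubiquitin from substrates, at 2.83 TPM, a difference of 98.3-fold in TPM between subunits of the same lid. By CPM, which do not correct for length, PSMD8 (mean 238.3), PSMD3 (235.4) and PSMB2 (234.9) were close together. The lead of PSMD8 in TPM thus depends on the transcript lengths used. Levels sum only transcripts matched to genes, and how much each gene lost in matching was not examined. The part of GC content in these differences was not tested. The median was 41.4 TPM for the 20S genes and 28.0 TPM for the 19S genes.

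**Figure D1:**
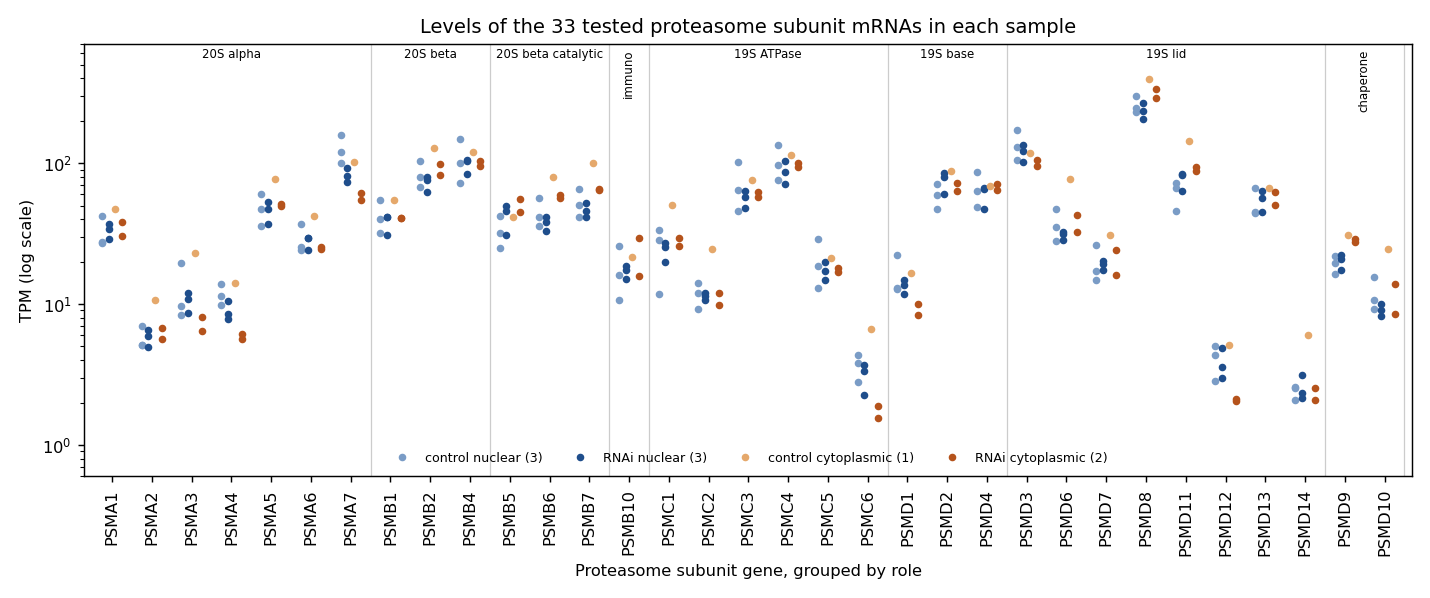
TPM (log axis) of each tested subunit mRNA in each of the 9 libraries, with genes grouped by role and points coloured by group. PSMD8 sat above all others, with a mean of 277.9 TPM, and PSMC6, PSMD12 and PSMD14 had the lowest means.

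Levels differed within each role too. In the alpha ring PSMA7 was highest, at 54.7 to 157.4 TPM across libraries, and PSMA2 lowest, at 4.99 to 10.7 TPM. Among the structural beta subunits PSMB4 ranged from 72.4 to 148.5 TPM and PSMB1 from 31.1 to 54.6 TPM. The 3 constitutive catalytic subunits were closer together, PSMB7 (the trypsin-like site) at 41.4 to 100.6 TPM and PSMB5 (the chymotrypsin-like site) at 25.1 to 55.7 TPM, and their ranges overlapped. Among the ATPases PSMC4 read 71.2 to 133.5 TPM and PSMC6 1.57 to 6.64 TPM. Of the large base subunits, PSMD2 read 47.5 to 87.5 TPM and PSMD1 8.39 to 22.4 TPM. Of the assembly chaperones tested, PSMD9 read 16.4 to 30.9 TPM and PSMD10 8.17 to 24.6 TPM, and their ranges overlapped.

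The inducible and tissue-restricted members other than PSMB10, and the assembly chaperone PSMD5, had few counts or none. PSMA8, the testis alpha subunit, had 0 counts in all 9 libraries, and 3 counts, the limit that a count of 0 allows, correspond to 0.19 to 0.303 CPM. PSMB8 and PSMB9, catalytic subunits of the interferon-inducible immunoproteasome, had at most 0.125 and 1.4 estimated counts. Both genes have alternate copies between which the counting could divide reads. PSMB11, the thymus subunit, had at most 2 counts, and PSMD5, a chaperone of cap assembly, had 1 to 14.4 counts. Whether PSMD5 had further counts on transcripts not matched to a gene was not examined. Only PSMB10 of the immunoproteasome subunits was tested, at 10.7 to 29.5 TPM.

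On WTAP/KIAA1429 RNAi the nuclear/cytoplasmic ratio was raised for 5 of 33 subunit mRNAs (15.2%) and lowered for 0. Raised means a log2 fold change above 0.5 at a Benjamini-Hochberg adjusted p (FDR) under 0.1 in edgeR's quasi-likelihood test. Over all 16181 genes 10.4% were raised and 7.87% lowered. The members raised were PSMA3 of the alpha ring, the ATPases PSMC2 and PSMC6, and the lid subunits PSMD12 and PSMD14. The median change (log2) of this ratio was 0.11 for the members and -0.05 for all genes tested, and 18 of the 33 members were positive, beside 47.2% of all genes. The number raised was 2 without RNAi cytoplasmic replicate 1 or RNAi nuclear replicate 3, 3 without control nuclear replicate 3, RNAi cytoplasmic replicate 2 or RNAi nuclear replicate 1, and 8 without control nuclear replicate 2. PSMD12 and PSMD14 were among those called in every one of these fits. By library size, without TMM, 7 members were raised, and over all genes 2236 were raised and 164 lowered against 1680 and 1273 here, with the median of all genes moved to 0.23. The 3 nucleus-retained RNAs used as fraction markers were raised in the same ratio, MALAT1 by 1.33 ± 0.47 (FDR 0.0936), NEAT1 by 0.85 ± 0.20 (FDR 0.025) and KCNQ1OT1 by 1.58 ± 0.29 (FDR 0.00988). In the cytoplasm MALAT1 and KCNQ1OT1 were lowered, from 13.8 to 6.47 and 5.47 CPM and from 6.39 to 4.05 and 3.28 CPM, and in nuclei NEAT1 and KCNQ1OT1 were raised. The 5 mitochondrially encoded mRNAs had ratio changes of -0.94 (MT-CO1) to -0.53 (MT-ND4), with edgeR FDRs of 0.242 (MT-CO2) to 0.574 (MT-ND4). They were chosen as markers of the cytoplasm but were not depleted from nuclei. MT-CO1 and MT-CYB were higher in nuclei than in cytoplasm, by 1.66 and 1.33 (log2) in control and 0.73 and 0.71 in RNAi cells. MT-ND1, MT-ND4 and MT-CO2 differed by 0.24 to 0.42 in control and -0.43 to -0.29 in RNAi cells, and none was called. The part of the separation of the fractions in the members' ratios was not tested.

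In each of the raised members the cytoplasmic level fell while the nuclear level passed no threshold. PSMD14 (chr2:162164936-162268228, plus strand, GRCh37) read 11.4 CPM in the control cytoplasmic library and 5.30 and 5.14 CPM in the RNAi cytoplasmic ones. In nuclei it read 4.6, 4.16 and 3.27 CPM in controls and 4.10, 3.89 and 4.21 CPM after RNAi. The nuclear groups overlapped and the cytoplasmic ones did not. Its ratio changed by 1.14 ± 0.30 (log2, SE; FDR 0.0365), from a cytoplasmic change of -1.12 ± 0.24 (FDR 0.0101) and a nuclear change of 0.02 ± 0.18 (FDR 0.974).

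PSMD12 (chr17:65334032-65362721, minus strand), a lid subunit that helps hold the cap together, read 22.6 CPM in control cytoplasm against 10.8 and 12 CPM after RNAi. Its nuclear values were 10.7, 15.1 and 11.6 CPM in controls and 11.8, 12.9 and 14 CPM after RNAi, with the groups overlapping. The ratio changed by 1.03 ± 0.27 (FDR 0.0349). PSMC2 (chr7:102969017-103010793, plus strand), an ATPase of the unfolding ring, went from 33.5 CPM in control cytoplasm to 18.4 and 19.5 CPM. In nuclei it read 13.9, 15.7 and 16.0 CPM in controls and 13.9, 13.4 and 13.6 CPM after RNAi. Its ratio changed by 0.67 ± 0.19 (FDR 0.048).

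PSMA3 (chr14:58711561-58738730, plus strand), an alpha ring subunit, read 14.1 CPM in control cytoplasm and 5.30 and 5.25 CPM after RNAi. The control nuclei read 6.25, 9.88 and 6.64 CPM, where replicate 2 stood apart, and the RNAi nuclei 5.49, 5.47 and 6.61 CPM. Its ratio changed by 1.04 ± 0.35 (FDR 0.0768), and in the cytoplasm alone it changed by -1.42 ± 0.28 (FDR 0.00714). PSMC6 (chr14:53173896-53195308, plus strand), the least abundant ATPase, read 4.62 CPM in control cytoplasm and 1.56 and 1.86 CPM after RNAi. Nuclei gave 2.61, 4.50 and 4.42 CPM in controls and 3.76, 2.87 and 3.34 CPM after RNAi. The ratio changed by 1.25 ± 0.45 (FDR 0.0986), on 17.1 to 76.0 counts per library.

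**Figure D2:**
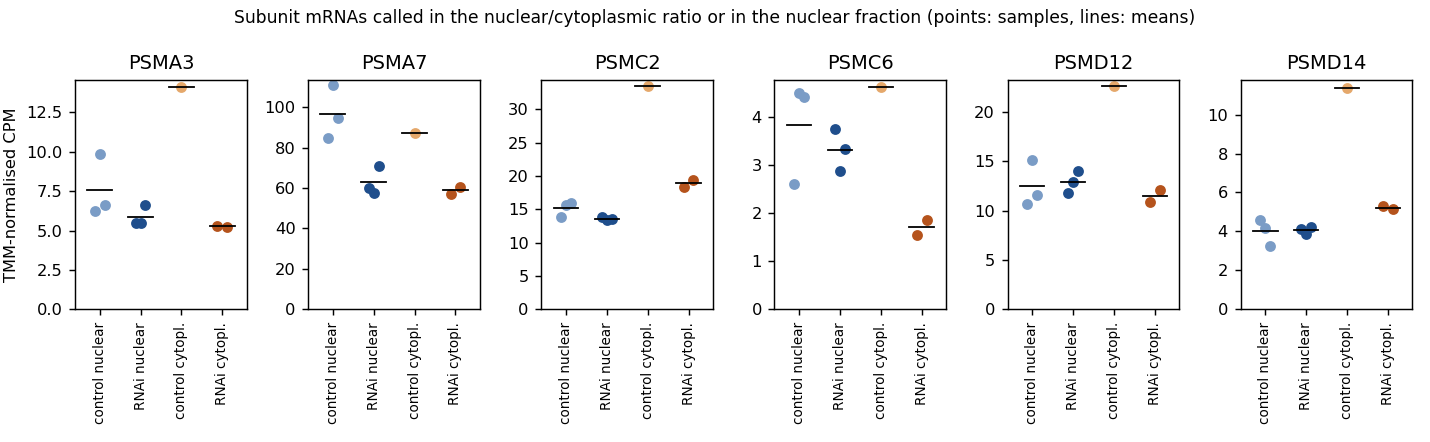
TMM-normalised CPM (linear axes from 0) of the 6 subunit mRNAs called in the ratio or in the nuclear fraction, 1 point per library, with a line at each group mean. The single control cytoplasmic library lay above both RNAi cytoplasmic libraries in all 6 genes, which were chosen by calls on these same values. Of all 16181 genes tested 40.1% had both RNAi cytoplasmic libraries below the control one and 39.6% above it. Among the 6 the nuclear groups separated for PSMA7 alone, beside 13.8% of all genes lower and 14.3% higher without overlap.

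The 5 raised members had low GC content. The most abundant protein-coding transcripts of the raised members had a GC content of 37.5% to 42.3%, with a median of 40.4%, while the other 28 had a median of 50.9%. The ratio sums transcripts of all classes, so this GC need not be that of all RNA counted. In control and RNAi nuclei protein-coding transcripts carried 9.6% and 6.7% of PSMC6's counts and 52.1% and 31.7% of PSMA3's. For PSMC2, PSMD12 and PSMD14 these nuclear shares were 86.3% to 96.1%. Across the 33 members the ratio change and GC content had a Spearman correlation of -0.86 (Pearson's r -0.81). Across 13351 protein-coding genes it was -0.59. These are descriptions over genes measured in the same 9 libraries, not replicates. For the nuclear change alone the members' correlation with GC was -0.02, and for the cytoplasmic change 0.79. Of 13 members under 45% GC 5 were raised and 12 had a positive change, beside 29.7% raised of the 4082 protein-coding genes under the same limit. Of 20 members at or over it none was raised, beside 3.24% of 9269 genes. The limit was chosen after the values were seen.

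**Figure D3:**
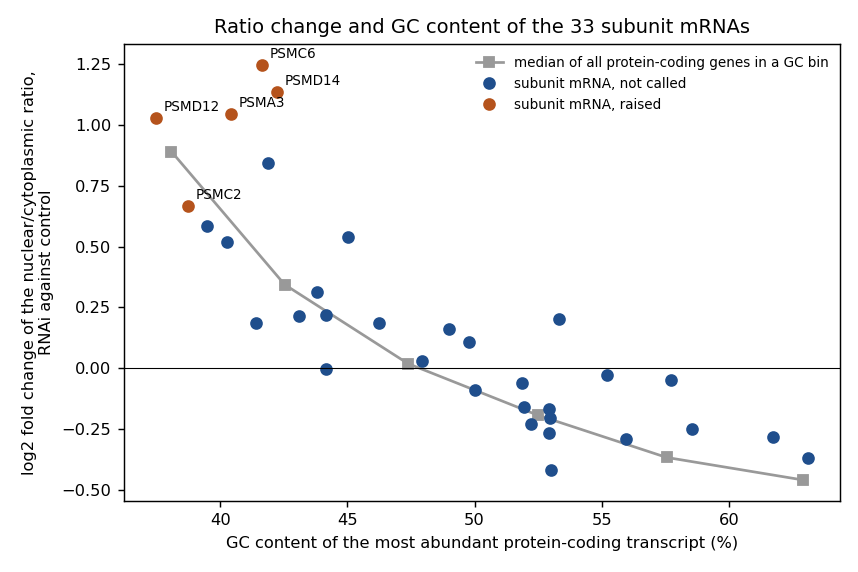
Change (log2) in nuclear/cytoplasmic ratio (RNAi against control) against the GC content of the most abundant protein-coding transcript for the 33 subunit mRNAs, with the median of all protein-coding genes in 6 bins of GC drawn at each bin's median GC. The raised members sat at the low-GC end. Under 40% GC, where all genes had a median of 0.89, PSMC2 read 0.67 and PSMD12 1.03. From 40% to 45% GC, where all genes had a median of 0.34, PSMA3 read 1.04, PSMC6 1.25 and PSMD14 1.14. The members not raised descended with GC too.

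A fit that took each library's trend on GC out of the counts, added after this trend was seen, called 0 members in either direction. In it PSMD14 read 0.64 ± 0.29 (FDR 0.258), PSMA3 0.67 ± 0.36 (FDR 0.333), PSMC6 0.69 ± 0.46 (FDR 0.446), PSMD12 0.05 ± 0.32 (FDR 0.956) and PSMC2 -0.18 ± 0.21 (FDR 0.701). That fit removes any effect of the siRNAs that follows GC as well, so the 2 cannot be told apart. The median log2 CPM of protein-coding genes under 45% GC minus that of the others was -0.79 in the control cytoplasmic library, -1.67 and -1.77 in the RNAi cytoplasmic ones and -1.49 to -1.31 in nuclei. For the 33 members the same difference was -1.62 in the control cytoplasmic library, -1.83 and -2.01 in the RNAi cytoplasmic ones and -1.79 to -1.59 in nuclei, so the control cytoplasmic library lay within the nuclear range for the members and above it for all genes. With a correction for the average transcript length of each gene the count of raised members was 1 (PSMC2), and PSMA3 and PSMC6 passed in 6 and 7 of the 16 other fits without GC.

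GGACT, a common form of the sequence in which the complex methylates adenosine, occurred in the most abundant protein-coding transcript of 24 of the 33 members, beside 86.1% of all protein-coding genes tested. The motif was searched on the transcript strand only. Members' transcripts were shorter, with a median of 1319 nt against 2585 nt, and had a median final exon of 245 nt against 1107 nt. Per kilobase the medians of GGACT were 0.92 and 0.96. The transcripts taken ran from 390 nt (PSMC1) and 534 nt (PSMD9) to 4426 nt (PSMB2). Length, final exon and GGACT count therefore depend on which annotated form was taken for a gene. Of the raised members PSMA3 had none. Occurrences without 10 bases of the same exon on each side were passed over. Among the remaining ones, the sites nearest the stop codon of the other 4 raised members all lay in coding sequence. They are shown with 2 sites from members whose ratio was not called, PSMD3 of the lid and PSMC5 of the ATPase ring, the latter with 5 occurrences, the most of any member. Capitals mark GGACT, and the sequences are those of GENCODE 44 on GRCh37.
PSMD14, chr2:162251629-162251653, plus strand, exon 10 of 12, coding: tgacacttcaGGACTacagtgaaca
PSMD12, chr17:65340825-65340849, minus strand, exon 9 of 11, coding: cacttgttgaGGACTatggaatgga
PSMC2, chr7:103004683-103004707, plus strand, exon 8 of 12, coding: gttgctaatcGGACTgatgcgtgct
PSMC6, chr14:53184832-53184856, plus strand, exon 8 of 10, coding: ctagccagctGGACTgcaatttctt
PSMD3, chr17:38153770-38153794, plus strand, exon 12 of 12, coding: gagaacagcaGGACTtggagtttgc
PSMC5, chr17:61909136-61909160, plus strand, exon 11 of 12, coding: tcactcaggaGGACTttgagatggc
A match is a description of letters and methylation was not measured in these libraries. Across the 33 members GGACT per kilobase and the ratio change had a Spearman correlation of -0.35, beside -0.19 across all protein-coding genes.

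Within nuclei the siRNAs lowered 1 subunit mRNA, PSMA7, and raised 0. Over all genes 2.42% were lowered and 2.47% raised. Without regard to the thresholds, 4 members (12.1%) had all RNAi nuclei below all control nuclei, beside 13.8% of all genes. PSMA7 (chr20:60711789-60718496, minus strand), the most abundant alpha subunit mRNA, read 84.5, 110.8 and 94.6 CPM in control nuclei and 59.9, 57.3 and 71.0 CPM in RNAi nuclei, without overlap. It changed by -0.62 ± 0.12 (edgeR FDR 0.0311). In the cytoplasm it went from 87.0 CPM to 57.2 and 60.7 CPM, a change of -0.56 ± 0.18 (FDR 0.0494), so the ratio changed by only -0.06 ± 0.22 (FDR 0.89). With a GC content of 51.9% it changed by -0.62 ± 0.12 in nuclei (FDR 0.0281) in the GC-corrected fit too. It was not called without control nuclear replicate 3 or without any 1 of the RNAi nuclear libraries, each of which left 0 members lowered, and without control nuclear replicate 1 the ATPase PSMC3 was called beside it.

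The other nuclear changes were small and mostly of 1 sign. Of the 33 members 27 had a negative log2 fold change in nuclei, with a median of -0.16 and a range of -0.62 to 0.34, while the median of all genes was 0.00. Without control nuclear replicate 2 the members' median was -0.02. That library held the highest summed level of the 3 control nuclei, 2262 CPM over the members against 1660 and 1881, and RNAi nuclei held 1583, 1831 and 1771 CPM. The largest positive value was that of the chymotrypsin-like subunit PSMB5, 0.34 ± 0.18 (FDR 0.323).

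In the cytoplasm the siRNAs lowered 10 of 33 subunit mRNAs (30.3%) and raised 0, beside 14.2% lowered and 10.4% raised of all genes. Besides the 5 with a raised ratio and PSMA7 these were the alpha subunits PSMA2 and PSMA4, the lid subunit PSMD6 and the assembly chaperone PSMD10. Of the 7 alpha subunits 4 were lowered, of the 6 ATPases 2, of the 8 lid subunits 3 and of the 2 chaperones 1. None of the 6 constitutive beta subunits passed, nor did the 3 large or ubiquitin-binding base subunits PSMD1, PSMD2 and PSMD4.

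**Figure D4:**
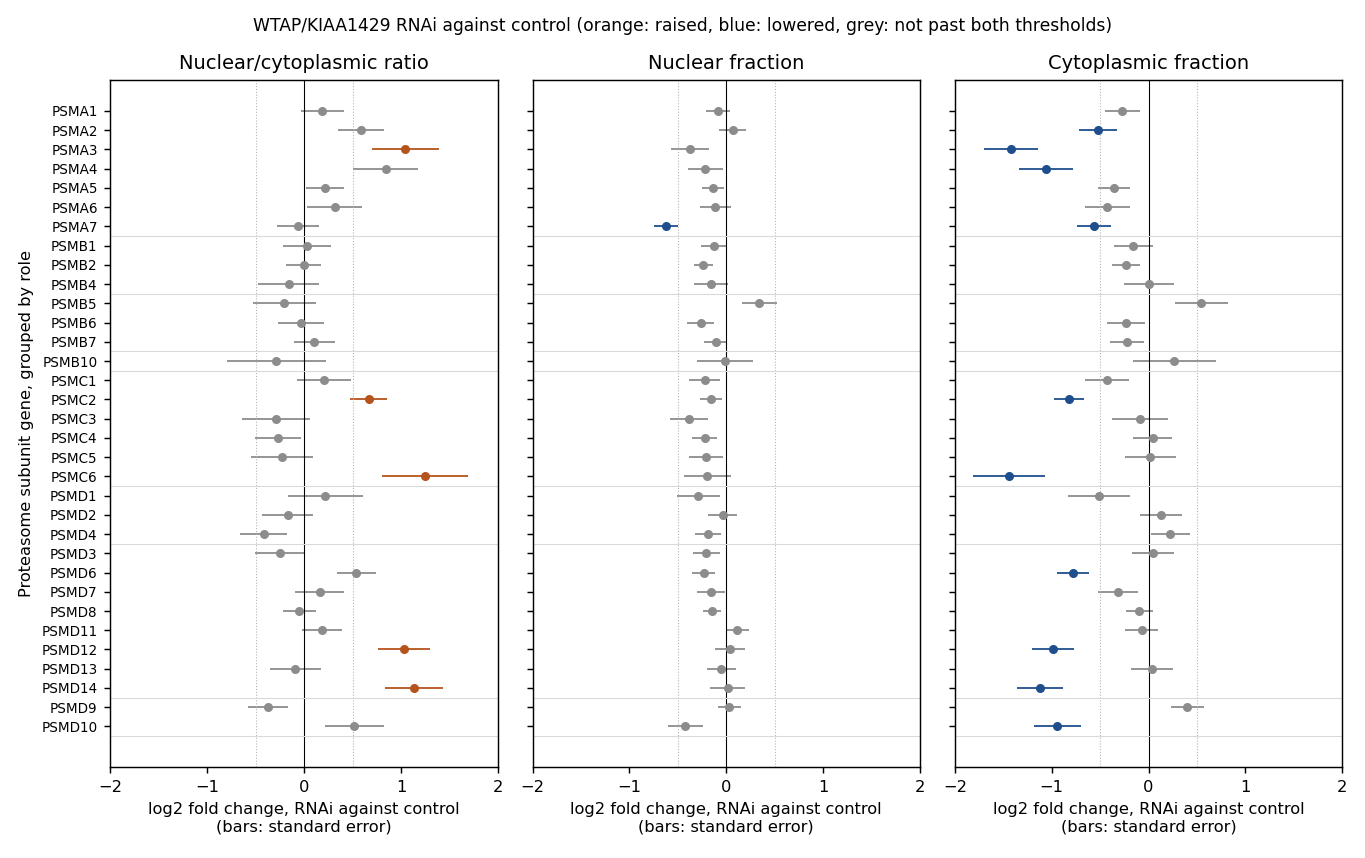
Log2 fold changes (points, with bars for standard errors) of the 33 subunit mRNAs, RNAi against control, for the nuclear/cytoplasmic ratio, the nuclear fraction and the cytoplasmic fraction, in rows grouped by role. The 5 raised ratios sit opposite cytoplasmic decreases of 0.82 to 1.44, and PSMA7 alone passes in the nucleus.

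PSMA4 went from 11.7 CPM in control cytoplasm to 5.14 and 6.12 CPM after RNAi (-1.06 ± 0.28, FDR 0.0251), and PSMD6 from 99.7 to 61.4 and 55 CPM (-0.78 ± 0.17, FDR 0.0101). PSMD10, the oncoprotein gankyrin that chaperones the ATPase ring, went from 33.7 to 19.9 and 15.0 CPM (-0.94 ± 0.25, FDR 0.0231). Each of these contrasts sets both RNAi libraries against the single control cytoplasmic library. The members' median was -0.24 and that of all genes 0.01. In the GC-corrected fit 2 of the 10 were still called, PSMA3 (-1.04 ± 0.29, FDR 0.0647) and PSMA7 (-0.63 ± 0.18, FDR 0.0684). PSMA2, at 39.5% GC, had a change of 0.25 ± 0.20 there (FDR 0.487). Without RNAi cytoplasmic replicate 1, PSMB5 and PSMD9 were called raised and 8 members lowered. By library size 431 of all genes were raised and 3200 lowered in the cytoplasm, against 1678 and 2305 here.

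Subunit mRNAs were a smaller share of nuclear than of cytoplasmic RNA with either siRNA. In control cells 16 of 33 were lower in nuclei (48.5%) and 0 higher, beside 22.7% lower and 28.0% higher among all genes. In RNAi cells 15 were lower (45.5%) and 2 higher, beside 24.9% and 32.9%. The median nuclear minus cytoplasmic log2 difference was -0.51 in control and -0.48 in RNAi cells for the members, and 0.04 in both for all genes. The 3 constitutive catalytic subunits had values of -0.72 to -0.88 in RNAi cells, all called, and of -0.51 to -0.93 in control cells, where PSMB6 and PSMB7 were called. Without TMM, by library size only, the same 16 members were called lower in nuclei of control cells, but 2 in nuclei of RNAi cells, where the median of all genes moved to 0.31. Over all genes 6456 were then higher and 2090 lower there, against 5316 and 4034 with TMM. Without RNAi cytoplasmic replicate 2, 8 members were lower there, and without RNAi cytoplasmic replicate 1 PSMA4 alone was higher.

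PSMA4 and PSMC6 were the 2 mRNAs higher in nuclei of RNAi cells, and in both the nuclear signal came from other transcripts than the cytoplasmic one. PSMA4, an alpha subunit (chr15:78832747-78844759, plus strand), had 88.4% of its counts on protein-coding transcripts in control cytoplasm and 15.2% in control nuclei. Transcripts annotated as retaining an intron carried 4.1% in control and 4.5% in RNAi cytoplasm, 75.6% in control nuclei and 84.7% in RNAi nuclei. The counts on these were 8 in the control cytoplasmic library, 4 and 1 in the RNAi cytoplasmic ones, 138, 170 and 128 in control nuclei and 184, 87 and 142 in RNAi nuclei. The nuclear and cytoplasmic libraries did not overlap.

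Summed over all transcripts, PSMA4 was higher in nuclei of RNAi cells by 1.14 ± 0.23 (log2, edgeR FDR 0.00154) and in control cells by 0.30 ± 0.26 (FDR 0.363). Summed over protein-coding transcripts alone, a setting added after the isoforms were seen, the nuclear minus cytoplasmic difference was -1.63 ± 0.54 in RNAi cells (FDR 0.0319) and -1.97 ± 0.57 in control cells (FDR 0.0239). The direction turned with the transcripts counted. These protein-coding counts were 170 in the control cytoplasmic library, 62 and 45 in the RNAi cytoplasmic ones and 7 to 61 in the 6 nuclear ones.

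PSMC6 had the same split on fewer counts. Its protein-coding transcripts carried 70.1% of its counts in control and 67.4% in RNAi cytoplasm, but 9.6% in control and 6.7% in RNAi nuclei. Intron-retaining transcripts carried 24.0% and 21.9% in nuclei, and the rest lay on transcripts of other classes. Over all transcripts PSMC6 was higher in nuclei of RNAi cells by 0.98 ± 0.31 (FDR 0.0198), and over protein-coding ones the difference was -2.14 ± 0.90 (FDR 0.0772), from 53 counts in control cytoplasm, 13 and 12 in RNAi cytoplasm and 0 to 10 in nuclei. The raised ratio of PSMC6 was not called on protein-coding transcripts either (0.63 ± 1.37, FDR 0.822), nor was that of PSMA3. PSMC2, PSMD12 and PSMD14 were.

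Intron-retaining transcripts of the proteasome genes were a larger share in nuclei. They took up 1.03% to 1.51% of the members' counts in the 3 cytoplasmic libraries, 6.27% to 6.97% in control nuclei and 7.13% to 8.31% in RNAi nuclei, so the fractions were far apart and the nuclear groups did not overlap. With these transcripts summed on their own, 21 members passed the filter. Of these 17 were higher in nuclei of control cells and 18 in nuclei of RNAi cells, beside 66.0% and 72.3% of the 4565 genes tested this way, and 1 was lower in each, beside 6.24% and 5.39%. Salmon divides reads between annotated forms, so the shares depend on which forms were annotated.

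The genes differed in this. PSMB4, a structural beta subunit, had 28.2% and 31.2% of its counts on intron-retaining transcripts in control and RNAi nuclei and 0.9% in cytoplasm with either siRNA. For PSMD6 the shares were 26.5% and 29.2% in nuclei and 1.4% and 1.2% in cytoplasm. PSMB10 carried 82.3% of its counts on such transcripts in control nuclei and 94.4% in control cytoplasm, and on protein-coding transcripts it had 0 to 9 counts in the 3 cytoplasmic and 14 to 34 in the 6 nuclear libraries. PSMA7 had a share of 0.0% in all 4 groups.

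The ratio of intron-retaining transcripts, RNAi against control, was raised for 1 of the 21 members, PSMD2, and lowered for 0, beside 1.4% and 0.657% of the 4565 genes. PSMD2, the large scaffold subunit of the base, had 53 such counts in control cytoplasm against 3 and 4 in RNAi cytoplasm, and 40, 36 and 41 in control and 65, 43 and 43 in RNAi nuclei. The ratio changed by 3.69 ± 0.61 (log2, edgeR FDR 0.046). With transcripts subject to nonsense-mediated decay added to the sums, 0 members were called. The whole PSMD2 gene did not pass in the ratio (-0.17 ± 0.26, FDR 0.728).

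Reads of processed pseudogenes, which many proteasome genes have, were few. Of 36 pseudogenes listed, 2 had 10 or more counts over the 9 libraries, PSMC1P1 with at most 23 counts in a library (9.0% of PSMC1) and PSMD10P1 with at most 8 (5.4% of PSMD10).

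The wider pathway was followed with 38 other genes in 6 lists, all of them tested. The ratio was raised for 6 and lowered for 0, beside 10.4% and 7.87% of all genes. In the cytoplasm 10 were lowered and 1 raised (KEAP1), beside 14.2% and 10.4%. In nuclei 1 was lowered and 0 raised, beside 2.42% and 2.47%. It was PSMG2, a chaperone of alpha ring assembly, at 17, 16.9 and 14.3 CPM in control and 10.1, 9.36 and 10.6 CPM in RNAi nuclei (-0.68 ± 0.15, FDR 0.0395). The median ratio change of the 38 was -0.04, close to the -0.05 of all genes.

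All 6 raised ratios of the pathway genes rest on the single control cytoplasmic library, and the part of GC content in them was not tested. The largest was that of UBA6, an alternative ubiquitin-activating enzyme. It read 17.9 CPM in control cytoplasm, 3.35 and 3.72 CPM in RNAi cytoplasm, 9.48, 6.95 and 7.52 CPM in control nuclei and 9.39, 8.43 and 9.15 CPM in RNAi nuclei. Its ratio changed by 2.52 ± 0.28 (FDR 0.00145). UCHL5 and USP14 are deubiquitinases that bind the cap. UCHL5 read 13.1 CPM in control and 4.21 and 4.48 CPM in RNAi cytoplasm, with nuclei at 3.48 to 5.38 CPM throughout (ratio 1.77 ± 0.32, FDR 0.00962). USP14 read 55.3 CPM in control and 29.2 and 26.6 CPM in RNAi cytoplasm, with nuclei at 17.1 to 22.2 CPM (0.89 ± 0.22, FDR 0.0268).

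The other 3 were NFE2L2, the stress regulator of proteasome genes (1.20 ± 0.23, FDR 0.0105), DDI2, the protease that activates NFE2L1 (0.68 ± 0.20, FDR 0.0493), and PSME4, an activator cap (0.58 ± 0.19, FDR 0.0688). NFE2L1, the factor that restores proteasome gene expression when proteasomes are inhibited, was 1 of 3 genes of the 38 called higher in nuclei of control cells, beside 23 called lower (28.0% and 22.7% of all genes). It read 172.2, 158.1 and 158.2 CPM in control nuclei, 116.0, 124.7 and 129.1 CPM in RNAi nuclei, 66.3 CPM in control cytoplasm and 67.8 and 74.1 CPM in RNAi cytoplasm. The nuclear groups did not overlap. Its nuclear change of -0.40 ± 0.09 (FDR 0.0399) stayed under the fold threshold, as did its ratio (-0.50 ± 0.16, FDR 0.069).

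POMP, the chaperone that matures the 20S core, read 7.0 CPM in control cytoplasm and 2.65 and 2.73 CPM after RNAi, a change of -1.38 ± 0.40 (FDR 0.0366). In nuclei it read 2.34, 5.32 and 4.16 CPM in controls and 2.43, 3.43 and 2.76 CPM after RNAi, and the groups overlapped. Its ratio was not called (0.92 ± 0.50, FDR 0.263).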

How the data were processed

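mRNA of separated nuclei and cytoplasm was sequenced (Lexogen SENSE mRNA libraries, HiSeq 2500), and 9 libraries were analysed, grouped by the siRNA and fraction in their labels. As the methods and the submitters' processing notes give it, the authors removed 9 bases of read 1 and 6 of read 2 with cutadapt, merged lanes and ran salmon against Ensembl 75 transcripts of hg19 (versions of the tools are not given in the sources used here). The deposited estimated counts are not normalized between samples. The deposited TPM values are divided by effective length and scaled to 1 total per library by salmon. Salmon's division of reads between transcripts of similar sequence can shift counts among isoforms, paralogs and pseudogenes.

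Transcripts were matched without version to GENCODE 44 mapped to GRCh37 (183122 of 215170, 85.1%). Gene sums of the estimated counts were rounded to integers. Depth was 11627403 to 19036141 counts, and counting limits cover counting error only. The test was edgeR 4.0.16 (R 4.3.3) with TMM, 4 groups, all 9 samples and 5 residual degrees of freedom, on 16181 genes with at least 10 counts in at least 3 samples. The spread of the single control cytoplasmic library came from the other groups. Calls needed a log2 fold change beyond 0.5 and a Benjamini-Hochberg FDR under 0.1, and the standard error is the log2 fold change divided by the square root of F. The code was tested on simulated counts.

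GC content, length and GGACT come from the protein-coding transcript with the highest mean TPM, in the newer annotation. Its sequence had the deposited length for 7 of the 33 members, and all 24 sequence windows matched the genome. The GC correction used the most abundant transcript of any class. Its offset was each library's lowess trend on GC of log2 CPM minus the gene's mean log2 CPM over all libraries.

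The members, roles and pathway lists were chosen with earlier results of these data known. Named by rule were members past both thresholds in the ratio or in nuclei, and those with the highest and lowest TPM of each role. So were pathway genes past both thresholds in the ratio or in nuclei, NFE2L1, POMP and the siRNA targets. All other genes were named after their values were seen. Alternatives were DESeq2 1.42.0 size factors and its Wald test, library size, no filter, a length offset, a replicate block, each library left out in turn (not control cytoplasm, which has 1), limma 3.58.1 for log2(TPM + 1) and log2(TPM + 0.1), an FDR of 0.05 and protein-coding transcripts. The GC fits, and protein-coding transcripts outside the ratio, were added after seeing the data. The result of 1 marker gene is not reported here.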

Additional observations from a re-analysis of the deposited data

Results flagged for a closer look

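The effect of the siRNAs differed between the nuclear and cytoplasmic fractions, by edgeR's test of the ratio, for 5 subunit mRNAs. The nuclear minus cytoplasmic log2 fold change was 1.04 for PSMA3, 0.67 for PSMC2, 1.25 for PSMC6, 1.03 for PSMD12 and 1.14 for PSMD14. All 5 rest on the single control cytoplasmic library, and 0 were called after the GC correction. The part of base composition in them was not tested beyond that fit.

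The effect of the siRNAs also differed for 6 genes of the pathway lists, with values of 0.58 for PSME4, 1.77 for UCHL5, 0.89 for USP14, 1.20 for NFE2L2, 0.68 for DDI2 and 2.52 for UBA6. These 6 rest on the same single control cytoplasmic library, and the part of base composition in them was not tested. WTAP, a target of the siRNAs, had a value of 0.89, with a nuclear change of -0.83 and a cytoplasmic one of -1.72. For the intron-retaining transcripts of PSMD2 it was 3.69, on 53 counts in control cytoplasm.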

How the results depend on the processing

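The number of members with a raised ratio (5) was 3 with the DESeq2 Wald test, limma on log2(TPM + 1) or log2(TPM + 0.1), an FDR of 0.05 or protein-coding transcripts, 1 with the length offset, 0 with the GC correction with or without the replicate block, and 2 to 8 with 1 library left out. Under the replicate block PSMD4 was called lowered (1) and 4 of the 5 were kept. Under the GC correction PSMC2 read -0.18 (-0.27 with the replicate block) and PSMD12 -0.14 with the block. In nuclei the number lowered (1) was 0 with either limma fit, 2 with protein-coding transcripts and 0 to 2 with 1 library left out. In the cytoplasm the number raised (0) was 1 under the replicate block with or without the GC correction and 0 to 2 with 1 library left out. The number lowered (10) was 2 under both GC fits, where PSMA2 read 0.25 (0.31 with the block), PSMC2 0.022 (0.12) and PSMD12 0.18 with the block.

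Between nucleus and cytoplasm of RNAi cells the number lower (15) was 2 by library size, 1 with either limma fit, where PSMD2 read 0.13, 8 with protein-coding transcripts, 23 with either GC fit and 8 to 17 with 1 library left out. The number higher (2) was 0 with the length offset, 1 with protein-coding transcripts or either GC fit, and 1 to 2 with 1 library left out. PSMB10 read 3.07 and PSMC6 -2.14 there with protein-coding transcripts. The number of members raised in the ratio on intron-retaining transcripts alone (1) was 0 with nonsense-mediated decay transcripts added. Causes of these moves were not tested. By library size the median of all genes moved to 0.23 in the ratio and -0.24 in the cytoplasm. Over all genes 1680 were raised and 1273 lowered in the ratio, against 2236 and 164 by library size and 682 and 499 after the GC correction. The correlations of same-numbered control and RNAi nuclear libraries were 0.19, 0.11 and 0.04, and 5 of the 6 libraries correlated best with the one of their own number, a hint from the data and not from the design alone. With the last value so low the numbers were not taken as pairs. Control cytoplasm has 1 library, and PSMC6 had under 80 counts per library.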
